A study of Mus musculus with 16 samples.

Results

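The liver response of wild-type (WT) mice to CDDO-Me was read across all genes by RNA-seq, as 4 libraries of WT CDDO-Me against 4 libraries of WT DMSO. These 8 libraries were taken by the names of their columns from the 16 of the series. All animals were C57BL/6, and the series' design text gives 4 animals for each group; ages and sexes were not used here. The WT CDDO-Me mice were injected into the peritoneum with 3 mg/kg CDDO-Me dissolved in DMSO, 24 h and 1 h ahead of partial hepatectomy, and the WT DMSO mice received 1 µL/g of DMSO on the same schedule. The tissue is labelled as day 0 of the operation. The other 8 libraries come from Nrf2-null (KO) mice, 4 given CDDO-Me and 4 labelled untreated. They entered the fit for a shared estimate of the spread, and they give the response without Nrf2. Which part of the gene the KO mice lack is not given in the sources used here. Because the KO controls are labelled untreated, drug and vehicle cannot be told apart in KO liver, and in a difference between the WT and KO responses the vehicle goes with the genotype.

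CDDO-Me (bardoxolone methyl) is a synthetic oleanane triterpenoid with electrophilic carbons that react with cysteines of KEAP1. KEAP1 holds the transcription factor NRF2, the product of Nfe2l2, at low levels by marking it for destruction, and an electrophile on KEAP1 lets NRF2 build up, enter the nucleus and pair with small MAF proteins. The pair binds the antioxidant response element, a short DNA sequence whose core is often written TGACNNNGC, near genes for glutathione synthesis, conjugation, quinone reduction, NADPH supply and export of conjugates. In liver, where foreign compounds are cleared, these genes set how fast electrophiles are reduced, conjugated and pumped into bile or blood.

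The stretches below show that core in the promoters of 9 genes that rose, as the letters NRF2 is known to bind; binding was not measured. They come from RefSeq promoter windows on GRCm38.p6, which run from 250 bases before to 50 bases after the start of a RefSeq transcript, and each is written 5′ to 3′ on the strand of its gene with the match in capitals. The 6 genes printed by rule are those with the smallest adjusted p among the genes called up whose window holds TGACNNNGC on either strand. An inner transcript is one that begins well inside the gene as GENCODE M21 annotates it. Not every match is printed. Abcc4, Htatip2 and Tbcel also hold TGACNNNGC in the window of another start, and Ugdh, Tbcel and Pir hold a further match in the window the stretch comes from.
Srxn1, chr2:152105542-152105570, plus strand, match on the opposite strand 28 bases past the start: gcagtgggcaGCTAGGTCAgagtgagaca
Ugdh, chr5:65435956-65435984, minus strand, match 132 bases before the start: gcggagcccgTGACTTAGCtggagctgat
Pla2g7, chr17:43568439-43568467, plus strand, match on the opposite strand 2 bases before the start of an inner transcript: cgccccccagGCACAGTCAggatccacgc
Abcc4, chr14:118676932-118677004, minus strand, match 23 bases before the start of an inner transcript: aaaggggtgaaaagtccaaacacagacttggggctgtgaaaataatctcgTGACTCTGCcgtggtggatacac
Slc35d1, chr4:103215219-103215327, minus strand, match 101 bases before the start: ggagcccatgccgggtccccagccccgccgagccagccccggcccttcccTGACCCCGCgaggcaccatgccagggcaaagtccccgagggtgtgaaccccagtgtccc
Htatip2, chr7:49759413-49759511, plus strand, match 49 bases before the start of an inner transcript: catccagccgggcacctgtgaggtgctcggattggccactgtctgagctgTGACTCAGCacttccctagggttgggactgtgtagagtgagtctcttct
The 3 other genes called up that hold TGACTCAGC, as Htatip2 does, were chosen after their windows were read. TGACTCAGC is the same core with its open bases read as TCA.
Tbcel, chr9:42461487-42461515, minus strand, match 77 bases before the start of an inner transcript: gaagtcagcaTGACTCAGCaagattaggt
Pir, chrX:164269181-164269275, plus strand, match on the opposite strand 214 bases before the start: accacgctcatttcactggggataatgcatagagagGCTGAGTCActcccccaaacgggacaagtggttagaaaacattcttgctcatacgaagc
Aldoa, chr7:126799416-126799504, minus strand, match on the opposite strand 220 bases before the start of an inner transcript: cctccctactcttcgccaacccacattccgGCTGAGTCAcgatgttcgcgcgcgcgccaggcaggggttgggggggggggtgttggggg
Of the 90 genes called up, 66 had a window, and 18 of these (27.3%) held TGACNNNGC in at least 1 of their windows. The count was 5 of 21 (23.8%) among genes called down and 1779 of 10608 (16.8%) among all genes tested, and 12.4% of the 32851 windows of the table hold it. TGACTCAGC was found for 4 of 66 genes called up (6.1%), 0 of 21 called down and 57 of 10608 tested (0.5%). TGACTCA, which TGACTCAGC contains, was found for 9 of 66 (13.6%), 2 of 21 (9.5%) and 510 of 10608 (4.8%). Genes have several starts (on average 1.38 windows for genes called up and 1.28 for all tested), and with only the first window listed for each gene the shares holding TGACNNNGC were 21.2% of genes called up, 19.0% of genes called down and 14.8% of all tested. In that first window TGACTCAGC was held by 1 of 66 genes called up (1.5%), 0 of 21 called down and 0.4% of all tested. A match in these letters is not a measured binding site, and a window without them says nothing of more distant elements.

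Summed gene counts ran from 12002317 to 26948425 in WT DMSO and from 13809649 to 99284626 in WT CDDO-Me, the highest being WT CDDO-Me 1. Libraries of the same group were not alike. The mitochondrial share of counts was 4.09 to 10.02% among controls, 3.85 to 3.89% for WT CDDO-Me 1 to 3 and 14.7% for WT CDDO-Me 4. Reads of sense-intronic and unsettled loci took 0.681% and 0.880% in WT DMSO 1 and 2, and 0.201 to 0.407% in the other 6 libraries. Nuclear ribosomal RNA took 0.00595% in WT DMSO 4, 0.0105% in WT CDDO-Me 1 and 0.173 to 0.634% in the other WT libraries. In KO libraries it took 0.00108 to 0.0368%. Its part in differences between WT and KO responses was not tested. The column names of WT DMSO 4 and WT CDDO-Me 1 begin with 25 and 27, those of the other WT libraries with 1 to 15. On the first principal component (39.4% of the variance) WT DMSO 1 and 2 lay at −40.8 and −49.0 and the other 6 libraries between −9.40 and 41.6. On the second (26.9%) WT DMSO 4 lay at 52.8 and the others between −27.5 and 15.2. WT DMSO 4 also carried the interferon and cytokine transcripts described below. Hepatocyte markers summed to 85010 to 164972 CPM (counts scaled to library totals adjusted by TMM) in WT DMSO. In WT CDDO-Me they summed to 119151 to 147999 CPM, within the range of the controls. Adipocyte, mesothelial and pancreatic markers summed to at most 16.5 CPM in WT DMSO. A fit that leaves out KO untreated 1 and 2 along with WT DMSO 1 and 2 is named the 12-library fit below.

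CDDO-Me changed a small set of genes, with more called up than down. Of 16206 genes tested, 118 were called (0.728%), 90 of them up (0.555%) and 28 down (0.173%), by edgeR's quasi-likelihood test at a Benjamini-Hochberg adjusted p under 0.05; 2484 genes had an unadjusted p under 0.05, 1120 of them higher and 1364 lower after CDDO-Me. DESeq2 on the same counts called 257 up and 209 down. Among the 90 genes up, 74 had a log2 fold change (WT CDDO-Me minus WT DMSO) of at least 1, 27 of at least 2 and 15 of at least 3, with a median of 1.49. Among the 28 down, 21 reached −1, 6 reached −2 and 4 reached −3, with a median of −1.52. In CPM, all 4 WT CDDO-Me libraries lay above all 4 WT DMSO libraries for 706 genes (4.36% of those tested) and below them for 461 (2.84%); in the deposited FPKM values, which carry no TMM scaling, 448 genes lay above and 328 below. All 90 genes up and 27 of the 28 down were among these, the exception being the long noncoding RNA 9430037G07Rik. By type, 106 of the 118 were protein coding, 7 processed pseudogenes, 3 long intergenic RNAs, 1 an unprocessed pseudogene and 1 a processed transcript, and 45 overlap another annotated gene, 28 of them only on the other strand.

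The 90 genes up made up 0.786, 0.741, 0.855 and 0.661% of all counts in the controls, replicates 1 to 4, against 2.668, 2.557, 2.607 and 1.972% after CDDO-Me. For the 28 genes down the shares were 0.910, 0.756, 0.465 and 0.445% against 0.297, 0.228, 0.213 and 0.184%. Both shares separated the groups, which the selection of these genes on the same libraries fixes, and the second was higher in WT DMSO 1 and 2 than in WT DMSO 3 and 4.

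The rises held better than the falls when 1 library was left out. Of the 118 genes, 48 were called in each of the 8 fits that left out 1 WT library, 46 of them up and only Slc17a4 and Kynu down. The counts up and down were 61 and 13, 53 and 9, 124 and 86, and 108 and 111 without WT DMSO 1 to 4 in turn. They were 64 and 5, 51 and 3, 54 and 5, and 55 and 6 without WT CDDO-Me 1 to 4. All 118 kept their direction in these 8 fits. In the paragraphs below a gene with no remark on libraries was called in all 8. For each gene list below, the counts that rose and fell stand beside 0.555% of all genes tested called up and 0.173% called down.

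**Figure D1:**
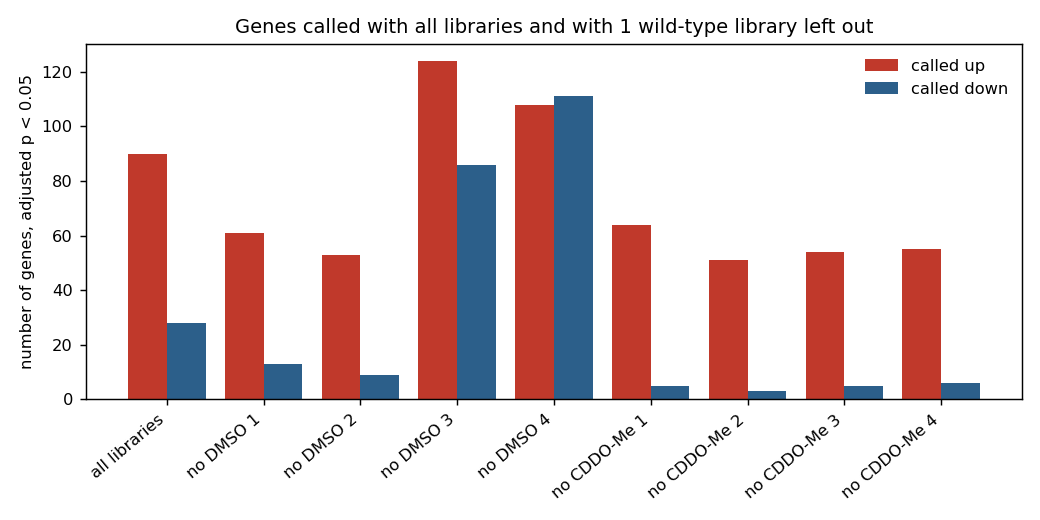
Number of genes called up (red) and down (blue) at an adjusted p under 0.05 by edgeR with all libraries and with each WT library left out in turn (y axis: genes). Genes called up stay between 51 and 124, whereas genes called down run from 3 to 111.

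No regulator of the pathway passed the test in RNA. Nfe2l2, which encodes NRF2, read 42.8, 66.2, 55.1 and 74.9 CPM in WT DMSO 1 to 4 and 39.5, 36.6, 45.5 and 38.00 CPM in WT CDDO-Me 1 to 4. The groups overlapped by WT DMSO 1, and the log2 fold change of −0.58 ± 0.25 (SE) was not called (edgeR adjusted p = 0.297, interval −1.13 to −0.03 at 95%). Keap1 read 41.8, 35.7, 49.7 and 49.8 CPM against 57.5, 58.7, 64.9 and 59.9 CPM, with every treated library above every control, and was not called either (0.44 ± 0.18, edgeR adjusted p = 0.276). None of the 20 pathway regulators tested was called, with a median log2 fold change of 0.06. Sqstm1, an autophagy receptor that binds KEAP1, and Bach1, a repressor that competes at antioxidant response elements, were at 0.70 ± 0.28 and 0.29 ± 0.42 in log2 (edgeR adjusted p = 0.269 and 0.736). The control level of Bach1 was 286 CPM in replicate 4 and at most 101 CPM in replicates 1 to 3, and the fold change with WT DMSO 4 left out was 1.02 (adjusted p = 0.11).

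Glutathione transferases, which join glutathione to electrophiles, held the called gene with the largest gain in CPM, Gstm1. Of 23 tested, 8 rose and 0 fell, with a median log2 fold change of 0.65 against −0.02 for all genes. In 11 all treated libraries lay above all controls (4.36% of all genes did). In the 12-library fit 7 rose and the median was 0.35. Gstm1 (ENSMUSG00000058135, chromosome 3, 108012255 to 108017973 on GRCm38), the main mu-class enzyme, read 675, 508, 879 and 598 CPM in WT DMSO 1 to 4 and 4879, 4194, 5539 and 4757 CPM in WT CDDO-Me 1 to 4. No library of one group came near the other, and the gene by itself went from at most 0.0791% of all counts to at least 0.354% in treated liver. Its log2 fold change was 2.86 ± 0.29 (SE, edgeR adjusted p = 5.04e-05). Gstm3 read 32.1, 40.3, 57.4 and 29.6 CPM against 468, 371, 459.9 and 324 CPM (3.35 ± 0.39, edgeR adjusted p = 0.000174), again with a wide gap between groups. Gstm4 and Gstm2, named after their values were seen, had log2 rises of 2.02 and 1.40 (edgeR adjusted p = 0.00174 and 0.00295). The mu genes lie side by side on chromosome 3, as does the long intergenic RNA Gm12498, which rose from 0.313 ± 0.172 to 3.56 ± 0.941 CPM (mean ± SD of the 4 libraries, as below; edgeR adjusted p = 0.00296). Gstm2-ps1, a processed copy on chromosome 5, read 0.0793 ± 0.0379 CPM and then 1.18 ± 0.343 CPM (edgeR adjusted p = 0.0032). How reads shared by such near-identical copies were counted is not given in the sources used here, so the levels of these family members are uncertain. That applies to every gene family below.

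The alpha class changed more steeply from lower levels. Gsta1 (ENSMUSG00000074183, chromosome 9, 78230656 to 78242684) read 3.00, 4.37, 4.28 and 3.08 CPM in WT DMSO 1 to 4 and 75.1, 49.3, 96.8 and 44.7 CPM in WT CDDO-Me 1 to 4 (4.18 ± 0.37, edgeR adjusted p = 2.6e-05). Gsta2 read 9.21, 9.02, 16.3 and 9.05 CPM against 78.2, 36.8, 53.4 and 41.7 CPM (2.27 ± 0.30, edgeR adjusted p = 0.000722). Both pairs of groups were well apart, and WT DMSO 3 was the highest control for Gsta2. The alpha-like genes Gm3776 on chromosome 9 and, named after its values were seen, Gm10639, went from 2.04 ± 0.564 to 47.5 ± 17.02 CPM and from 1.67 ± 0.654 to 10.9 ± 2.42 CPM (edgeR adjusted p = 3.24e-05 and 0.000803). Gsta3, an abundant member, was not called, at 713 to 1232 CPM in controls against 1269 to 1642 CPM (0.65 ± 0.27, edgeR adjusted p = 0.277), although the groups did not overlap. The pi-class gene Gstp1 read 594, 621, 1145 and 1308 CPM against 2344, 2129, 3277 and 2478 CPM and had a log2 rise of 1.48 (edgeR adjusted p = 0.0122). Its controls split into a low pair, WT DMSO 1 and 2, and a high pair, and its call was lost without WT CDDO-Me 3 (adjusted p = 0.0578). Gstp2, beside it on chromosome 19, and Gstp-ps, a processed copy inside Traf5 on chromosome 1, rose by 1.45 and 1.59 (edgeR adjusted p = 0.0304 and 0.00378), the former not called without WT DMSO 1 or 2 or WT CDDO-Me 2, 3 or 4 (adjusted p up to 0.117 without WT CDDO-Me 2). The microsomal Mgst1 was not called (0.57 ± 0.29, edgeR adjusted p = 0.351).

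**Figure D2:**
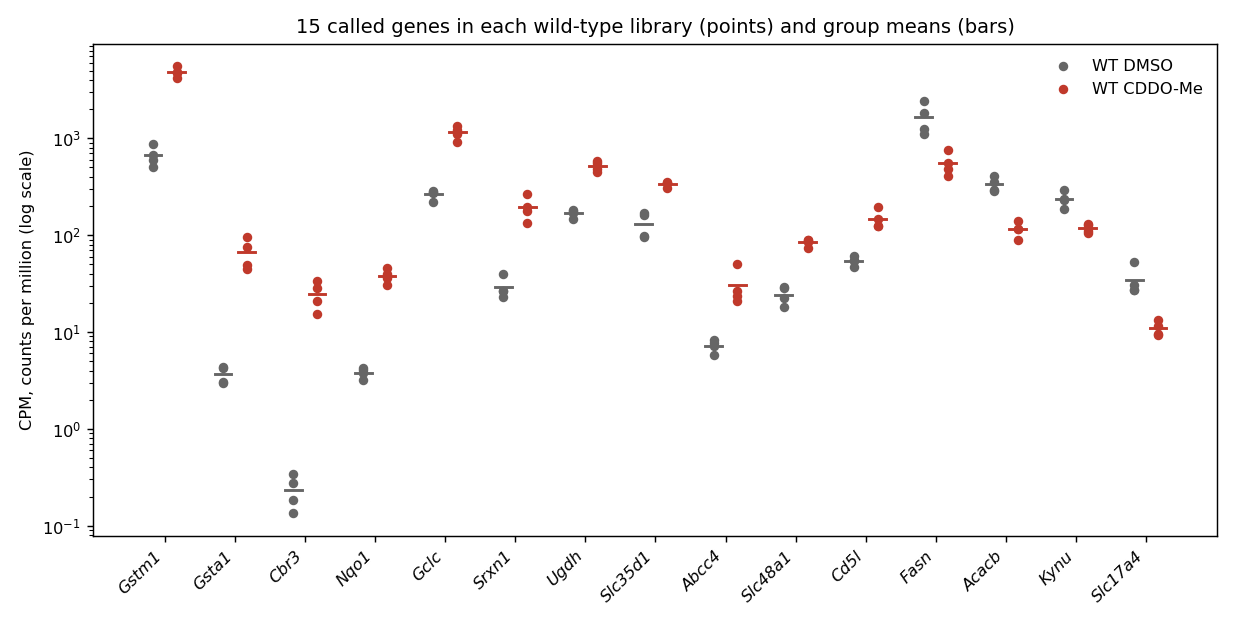
Level of 15 called genes in each WT library (y axis: CPM on a log scale; grey points, WT DMSO; red points, WT CDDO-Me; bars, group means, n = 4). In each of the 15 genes the red and grey points do not overlap. Cbr3 lies at or below 0.341 CPM in WT DMSO, and Gstm1 lies at or above 4194 CPM in WT CDDO-Me.

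Glutathione synthesis rose at its rate-limiting step and at the last. Gclc (ENSMUSG00000032350, chromosome 9, 77754535 to 77794485), the catalytic subunit of glutamate-cysteine ligase, read 288, 218, 271 and 277 CPM in WT DMSO 1 to 4 and 1118, 1355, 1229.9 and 925 CPM in WT CDDO-Me 1 to 4. The groups were far apart, and the change was 2.13 ± 0.20 in log2 (edgeR adjusted p = 3.24e-05). Gss, glutathione synthetase, read 32.4, 53.7, 67.2 and 61.99 CPM against 124, 111, 121 and 104 CPM (1.10 ± 0.22, edgeR adjusted p = 0.0245). Its groups were apart, but it was not called without WT DMSO 2 or any single WT CDDO-Me library (adjusted p up to 0.0831 without WT CDDO-Me 3), and it overlaps Acss2 on the other strand. Gclm, the modifier subunit, read 102, 87.7, 211 and 183 CPM against 240.4, 335, 319 and 318 CPM and missed the threshold (1.06 ± 0.27, edgeR adjusted p = 0.0959); without WT DMSO 3 it passed at 1.30 (adjusted p = 0.0402). Its groups did not overlap, and the controls again fell into WT DMSO 1 and 2 low and WT DMSO 3 and 4 high. Of 15 genes of glutathione synthesis and recycling, 2 rose and 0 fell (median 0.36). The count up was 4 without WT DMSO 4, 3 without WT DMSO 3 and 1 in the 12-library fit, where the median was 0.12. Glo1, which clears methylglyoxal, was not called (0.21 ± 0.28, edgeR adjusted p = 0.701).

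The peroxide-removing enzymes changed in a few members. Srxn1 (ENSMUSG00000032802, chromosome 2, 152105516 to 152111376), sulfiredoxin, which repairs overoxidised peroxiredoxins, read 26.6, 22.96, 26.4 and 39.5 CPM in WT DMSO 1 to 4 and 197, 266, 177 and 133 CPM in WT CDDO-Me 1 to 4 (2.74 ± 0.27, edgeR adjusted p = 3.24e-05). Osgin1, an oxidative stress-induced growth inhibitor, read 99.3, 76.8, 57.7 and 94.96 CPM against 343, 312, 281 and 279 CPM (1.89 ± 0.30, edgeR adjusted p = 0.00452). In both genes every treated library stood far above every control. Txnrd1, cytosolic thioredoxin reductase, read 115, 113, 151 and 253 CPM against 355, 339, 411 and 307 CPM (1.16 ± 0.22, edgeR adjusted p = 0.0222). WT DMSO 4 came close to the lowest treated library, and the call was lost without WT DMSO 1 or 2 or WT CDDO-Me 1, 2 or 3 (adjusted p up to 0.0905 without WT CDDO-Me 3). Of the 25 genes of this list, these 3 rose and 0 fell, with a median of 0.36. The median was 0.56 without WT DMSO 4 and 0.01 in the 12-library fit, where 1 gene was called and 13 of 25 were positive. Catalase (Cat) read 1408 to 2748 CPM against 2982 to 4151 CPM without overlap and was not called (0.79 ± 0.27, edgeR adjusted p = 0.196). Selenop, the selenium carrier of plasma, was not called (0.31 ± 0.30, edgeR adjusted p = 0.598).

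Enzymes that reduce quinones and carbonyls or open epoxides held the steepest rise of the comparison. Cbr3 (ENSMUSG00000022947, chromosome 16, 93683215 to 93690990), a carbonyl reductase, read 0.341, 0.278, 0.134 and 0.184 CPM in WT DMSO 1 to 4 and 28.3, 33.9, 20.8 and 15.5 CPM in WT CDDO-Me 1 to 4, which is 6.72 ± 0.46 in log2 (edgeR adjusted p = 1.49e-06). Control livers held almost none of this transcript. Its neighbour Cbr1 on chromosome 16, from a much higher start, read 38.95, 31.98, 52.6 and 33.4 CPM against 301, 248, 226 and 219 CPM (2.66 ± 0.26, edgeR adjusted p = 3.24e-05). Nqo1 (ENSMUSG00000003849, chromosome 8, 107388225 to 107403206), the quinone reductase used as a standard readout of NRF2, read 3.21, 3.75, 4.22 and 4.04 CPM against 45.9, 40.2, 36.4 and 30.7 CPM, an interval of 2.68 to 3.98 at 95% on the log2 scale (edgeR adjusted p = 2.6e-05). The controls were tight, and all treated libraries were far above them. Ephx1, microsomal epoxide hydrolase, read 252, 205, 484 and 337 CPM against 1117, 921, 1208 and 1038 CPM (1.75 ± 0.29, edgeR adjusted p = 0.00593), with WT DMSO 3 the highest control. Akr1b8, an aldo-keto reductase, rose from 1.52 ± 0.0954 to 6.21 ± 0.625 CPM (edgeR adjusted p = 7.81e-05). Of 35 genes of this list, 9 rose and 0 fell, with a median of 0.50 (0.33 in the 12-library fit); 1 of the 9 is Entpd5, a nucleotidase described below. Named after their values were seen, Htatip2 (1.47 ± 0.20), Akr1c19 (1.28 ± 0.24) and aldehyde oxidase Aox1 (1.22 ± 0.27) rose too (edgeR adjusted p = 0.000948, 0.0182 and 0.0472). Akr1c19 was not called without WT DMSO 1 or 2 or WT CDDO-Me 2, 3 or 4 (adjusted p up to 0.0724 without WT CDDO-Me 2), nor Aox1 without WT DMSO 1, 2 or 3 or any single WT CDDO-Me library (adjusted p up to 0.137 without WT CDDO-Me 2). The abundant dehydrogenases Aldh2 (0.36 ± 0.25) and Adh1 (0.22 ± 0.27) were not called (edgeR adjusted p = 0.462 and 0.677).

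The route that makes and uses UDP-glucuronic acid, the sugar donor of glucuronidation, rose at successive steps. Ugdh (ENSMUSG00000029201, chromosome 5, 65413221 to 65435949), which oxidises UDP-glucose to the donor, read 177, 146, 183 and 168 CPM in WT DMSO 1 to 4 and 482, 552, 578 and 453 CPM in WT CDDO-Me 1 to 4 (1.62 ± 0.16, edgeR adjusted p = 4.35e-05). Slc35d1, which carries the donor into the endoplasmic reticulum, read 98.98, 95.4, 162 and 171 CPM against 352, 349, 348 and 310.2 CPM (1.36 ± 0.18, edgeR adjusted p = 0.000916). Treated libraries were nearly equal, while WT DMSO 1 and 2 lay below WT DMSO 3 and 4. Entpd5, a nucleotidase that clears the UDP left over, went from 228 ± 54.6 to 712 ± 69.96 CPM (edgeR adjusted p = 0.000577; named after its values were seen). Among the transferases, Ugt2b35 read 141, 135, 224 and 285 CPM against 623, 910.5, 969.8 and 702 CPM (2.03 ± 0.26, edgeR adjusted p = 0.000577). Ugt2b5 read 324, 292, 878 and 736 CPM against 1378, 1663, 2111 and 1636 CPM (1.61 ± 0.32, edgeR adjusted p = 0.0282). Neither overlapped between groups, but the Ugt2b5 call was lost without WT DMSO 1 or 2 or WT CDDO-Me 2, 3 or 4 (adjusted p up to 0.102 without WT CDDO-Me 3). Ugt2b36 had a like shift and was not called (1.14 ± 0.28, edgeR adjusted p = 0.0715). Of 32 glucuronidation and sulfation genes, 5 rose and 0 fell, with a median of 0.22 (0.41 without WT DMSO 3 and 0.10 in the 12-library fit). The remaining one was Ugt1a6b (0.69 ± 0.14, edgeR adjusted p = 0.037), not called without WT DMSO 1 or 2 or any single WT CDDO-Me library (adjusted p up to 0.116 without WT CDDO-Me 3); it shares exons with the other Ugt1a genes of its locus.

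Export pumps of the basolateral membrane, which send conjugates back to blood, rose. Abcc4 (ENSMUSG00000032849, chromosome 14, 118482692 to 118706219) read 8.19, 7.63, 5.75 and 7.21 CPM in WT DMSO 1 to 4 and 50.9, 21.1, 26.8 and 23.3 CPM in WT CDDO-Me 1 to 4 (2.09 ± 0.25, edgeR adjusted p = 0.000273), WT CDDO-Me 1 being the highest. Abcc3 read 267, 213, 372 and 262 CPM against 636, 739, 701 and 757 CPM (1.35 ± 0.22, edgeR adjusted p = 0.00621). Abcc12, a related pump with almost no transcript in control liver, read 0.409, 0.347, 0.401 and 0.276 CPM against 8.73, 6.10, 4.43 and 6.24 CPM (4.16 ± 0.40, edgeR adjusted p = 3.24e-05). None of the 3 overlapped between groups. On the bile side Abcc2 was not called, at 604 to 1198 CPM against 1231 to 1723 CPM (0.61 ± 0.24, edgeR adjusted p = 0.266), and neither was the uptake carrier Slco1b2 (0.30 ± 0.31, edgeR adjusted p = 0.613). Of 24 hepatic transporters, 2 rose and 0 fell, with a median of 0.05 (0.27 without WT DMSO 4 and −0.20 in the 12-library fit). Outside that list, the carnitine carrier Slc22a5 (0.98 ± 0.20, edgeR adjusted p = 0.0261) and the carnitine acetyltransferase Crat (1.07 ± 0.24, edgeR adjusted p = 0.0497) rose; they were named after their values were seen, and were not called without WT DMSO 1 or 2 or WT CDDO-Me 1, 2 or 4 and without WT DMSO 1, 2 or 4 or any single WT CDDO-Me library (adjusted p up to 0.0935 without WT CDDO-Me 4 and 0.194 without WT CDDO-Me 2).

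The P450 genes that passed the test were both of the Cyp2a family. Cyp2a5 (ENSMUSG00000005547, chromosome 7, 26835305 to 26843548), which hydroxylates coumarin and oxidises bilirubin, read 143, 301, 430.4 and 141 CPM in WT DMSO 1 to 4 and 2785, 2652, 3679.8 and 3218 CPM in WT CDDO-Me 1 to 4 (3.60 ± 0.58, edgeR adjusted p = 0.00491). Cyp2a4, a steroid hydroxylase close to it in sequence, read 0.887, 2.36, 3.55 and 0.735 CPM against 50.2, 26.9, 30.6 and 41.9 CPM (4.34 ± 0.63, edgeR adjusted p = 0.00204). In both, WT DMSO 2 and 3 were the higher controls, and all treated libraries were far above them. The pseudogene Cyp2a21-ps rose from 1.44 ± 1.11 to 12.1 ± 6.89 CPM (edgeR adjusted p = 0.0246), but not without WT DMSO 1 or WT CDDO-Me 2 or 4 (adjusted p up to 0.0963 without WT CDDO-Me 4). Of 35 P450 genes of families 1 to 3, 2 rose and 0 fell, with a median of 0.06; in the 12-library fit 1 rose and the median was −0.21. Cyp2e1 (0.31 ± 0.39) and Cyp3a11 (−0.84 ± 0.45) were not called (edgeR adjusted p = 0.682 and 0.367). Cyp2a4 was also the only called gene among 11 female-biased liver genes (median −0.32, or 0.07 without WT DMSO 3 and −0.90 in the 12-library fit), and Gstp1 the only one among 20 male-biased genes (median −0.09, or 0.44 without WT DMSO 4 and −0.46 in the 12-library fit).

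The pentose phosphate pathway, the main cytosolic source of NADPH, rose in its oxidative and non-oxidative arms. G6pdx, the entry enzyme, read 3.96, 4.23, 4.82 and 4.59 CPM in WT DMSO 1 to 4 and 9.29, 11.2, 10.9 and 10.1 CPM in WT CDDO-Me 1 to 4 (1.23 ± 0.27, edgeR adjusted p = 0.0493). Pgd, the next oxidative enzyme, read 38.9, 37.2, 33.3 and 36.3 CPM against 72.1, 82.97, 70.1 and 65.2 CPM (0.99 ± 0.19, edgeR adjusted p = 0.0182). Tkt, transketolase, read 84.5, 77.6, 116 and 114 CPM against 195, 180.2, 237 and 211 CPM (1.07 ± 0.19, edgeR adjusted p = 0.0126). Every treated library exceeded every control in all 3, yet the calls were close to the threshold. G6pdx was not called in any of the 8 fits without 1 library (adjusted p up to 0.154 without WT CDDO-Me 2), Pgd was not without WT CDDO-Me 2 or 3 (up to 0.0787 without WT CDDO-Me 2), and Tkt was not without WT CDDO-Me 3 (0.063). Of 17 genes of this list, these 3 rose and 0 fell, with a median of 0.40; 2 rose without WT DMSO 3, without WT DMSO 4 and in the 12-library fit, where the median was 0.11. The abundant H6pd (0.62 ± 0.24) and Idh1 (0.47 ± 0.25) were not called (edgeR adjusted p = 0.246 and 0.365).

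Among 34 genes of glucose metabolism, 2 rose and 1 fell, with a median of −0.16. Without WT DMSO 3 the median was 0.00 and 3 rose, without WT DMSO 4 3 fell, and in the 12-library fit 1 rose, 0 fell and the median was −0.34. The glycolytic enzymes Aldoa and Pkm, isoforms that dominate in other tissues, went from 78.7 ± 11.8 to 145 ± 9.37 CPM and from 15.3 ± 4.55 to 34.4 ± 7.21 CPM (0.89 ± 0.19 and 1.16 ± 0.23, edgeR adjusted p = 0.0375 and 0.0226). Ppp1r3b, which targets a phosphatase to glycogen, read 401, 297, 344 and 272 CPM in WT DMSO 1 to 4 and 166, 195, 179 and 136 CPM in WT CDDO-Me 1 to 4 (−0.96 ± 0.19, edgeR adjusted p = 0.0239). The groups were apart in these 3 genes. Aldoa was not called without WT DMSO 1 or 2 or any single WT CDDO-Me library (adjusted p up to 0.124 without WT CDDO-Me 3), Pkm not without WT DMSO 2 or WT CDDO-Me 1, 2 or 4 (up to 0.098 without WT CDDO-Me 2), and Ppp1r3b not without WT DMSO 1 or any single WT CDDO-Me library (up to 0.114 without WT CDDO-Me 4). Pck1, of gluconeogenesis, was not called (−0.25 ± 0.27, edgeR adjusted p = 0.644).

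Heme and iron handling rose at 3 of 35 genes and fell at 0, with a median of 0.24 (0.42 without WT DMSO 4 and −0.03 in the 12-library fit, with 3 called up in each). Slc48a1 (ENSMUSG00000081534, chromosome 15, 97778520 to 97792692), which moves heme out of the lysosome, read 22.3, 17.97, 28.9 and 28.3 CPM in WT DMSO 1 to 4 and 73.2, 90.2, 84.3 and 88.6 CPM in WT CDDO-Me 1 to 4 (1.78 ± 0.19, edgeR adjusted p = 6.09e-05). Blvrb, a biliverdin and flavin reductase, read 48.2, 36.1, 68.98 and 57.4 CPM against 179.7, 206, 208 and 165 CPM (1.85 ± 0.20, edgeR adjusted p = 0.000109). Both genes were cleanly split by treatment. Ftl1, the ferritin light chain, read 519, 452, 461 and 380.2 CPM against 655, 875, 974 and 1141 CPM (1.01 ± 0.22, edgeR adjusted p = 0.0436), and the annotated copy Ftl1-ps1 read 456, 348, 699.7 and 586 CPM against 1093, 1387, 1529 and 1375 CPM (1.36 ± 0.29, edgeR adjusted p = 0.0393). Reads shared between the ferritin copies cannot be told apart, and neither call was firm: Ftl1 was not called without any single WT DMSO library or WT CDDO-Me 2, 3 or 4 (adjusted p up to 0.136 without WT CDDO-Me 4), and Ftl1-ps1 was not without WT DMSO 1 or 2 or any single WT CDDO-Me library (up to 0.124 without WT CDDO-Me 3). Hmox1, heme oxygenase, the classic inducible member, read 20.5, 34.1, 47.2 and 294 CPM against 94.96, 104, 105 and 266 CPM. WT DMSO 4 exceeded all treated libraries, and the change of 0.52 ± 0.63 was not called (edgeR adjusted p = 0.677); without WT DMSO 4 it was 2.07 (adjusted p = 0.0216). Hpx, the plasma heme carrier, was not called (0.42 ± 0.50, edgeR adjusted p = 0.677), and was also highest in WT DMSO 4 among the controls; without that library its value was 1.10 (adjusted p = 0.179).

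Serine synthesis genes and other known targets of ATF4, a transcription factor of amino acid stress, had the highest median of the lists with a called gene, 0.86. Of 29 tested, 4 rose and 0 fell, and in 15 all treated libraries lay above all controls (4.36% of all genes did). Fgf21 (ENSMUSG00000030827, chromosome 7, 45613886 to 45615490), a hormone the liver releases under metabolic stress, read 1.02, 1.11, 1.00 and 0.0918 CPM in WT DMSO 1 to 4 and 90.3, 7.89, 15.1 and 21.8 CPM in WT CDDO-Me 1 to 4. The treated libraries ranged widely, WT CDDO-Me 1 lying far above the rest, and the change was 5.46 ± 0.76 in log2 (edgeR adjusted p = 0.00129), or 4.25 without WT CDDO-Me 1 (adjusted p = 0.0013). Psat1, which makes phosphoserine, read 1.30, 0.208, 0.401 and 0.735 CPM against 19.6, 11.6, 5.06 and 6.79 CPM (4.03 ± 0.59, edgeR adjusted p = 0.00206). Psph, which releases serine from it, read 3.96, 3.89, 4.08 and 3.95 CPM against 9.70, 7.59, 7.90 and 6.98 CPM (1.03 ± 0.18, edgeR adjusted p = 0.00994), with very even controls. The glycine carrier Slc6a9 went from 30.5 ± 10.7 to 68.7 ± 4.05 CPM (1.17 ± 0.22, edgeR adjusted p = 0.0209) and was not called without WT DMSO 1 or any single WT CDDO-Me library (adjusted p up to 0.0787 without WT CDDO-Me 2). The abundant Gpt2 (−0.37 ± 0.15) and Cth (−0.14 ± 0.26) were not called (edgeR adjusted p = 0.277 and 0.796). The members that rose were of low level, and the summed level of the list overlapped between groups, at 1630.1, 1479, 1687 and 1477 CPM in WT DMSO and 1855, 1704, 1656 and 1719.6 CPM in WT CDDO-Me.

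Several lipogenic genes fell in treated liver. Of 30 enzymes and regulators of fatty acid and triglyceride synthesis, 4 fell and 0 rose, 25 had a negative fold change, and the median was −0.69. In 10 all treated libraries lay below all controls (2.84% of all genes did), and in 1 above (4.36% of all genes did). Fasn (ENSMUSG00000025153, chromosome 11, 120805846 to 120824547), fatty acid synthase, read 2422, 1841, 1252 and 1120.0 CPM in WT DMSO 1 to 4 and 766, 485, 556 and 407 CPM in WT CDDO-Me 1 to 4 (−1.58 ± 0.33, edgeR adjusted p = 0.0372). Acacb, the mitochondrial acetyl-CoA carboxylase, read 409.6, 358, 288 and 293 CPM against 115, 89.4, 142 and 117 CPM (−1.54 ± 0.28, edgeR adjusted p = 0.0126). Thrsp, a regulator of lipogenesis, read 539, 401, 352 and 309.8 CPM against 101, 63.1, 109 and 58.6 CPM (−2.27 ± 0.48, edgeR adjusted p = 0.0373). In all 3 the groups were separate, and WT DMSO 1 and 2 were the highest controls. Insig2, which holds the sterol sensor in the endoplasmic reticulum, went from 197 ± 46.98 to 103 ± 14.8 CPM (−0.94 ± 0.21, edgeR adjusted p = 0.0493). These calls were not firm. Acacb was lost without WT CDDO-Me 1, 2 or 4 (adjusted p up to 0.0775 without WT CDDO-Me 2), Fasn without WT DMSO 1 or 2 or WT CDDO-Me 2, 3 or 4 (up to 0.147 without WT CDDO-Me 2), Thrsp without WT DMSO 1 or 2 or any single WT CDDO-Me library (up to 0.147 without WT CDDO-Me 2) and Insig2 without WT DMSO 1, 2 or 4 or any single WT CDDO-Me library (up to 0.197 without WT CDDO-Me 2). The number of lipogenic genes called down was 6 without WT DMSO 4, 1 without KO untreated 1 and 2 and WT DMSO 1 and 2, and 0 without WT DMSO 3 and WT CDDO-Me 4, while the median stayed between −0.53 and −0.71 in these 3 fits. Scd1, the most abundant member, read 5799 to 9976 CPM against 3039.8 to 5243 CPM without overlap and was not called (−0.82 ± 0.35, edgeR adjusted p = 0.29). Lpin1 read 1846, 1744, 1146 and 358 CPM against 299, 315, 382 and 327 CPM and was not called either (−1.95 ± 0.60, edgeR adjusted p = 0.165), WT DMSO 4 being near the treated level. Summed over the list, levels were 16023, 15435, 16239.9 and 16752 CPM in WT DMSO and 9801, 7438, 10059 and 8221 CPM in WT CDDO-Me.

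Some genes that break down amino acids fell. Of 40 genes of the urea cycle and amino acid catabolism, 3 fell and 0 rose, 17 had all treated libraries below all controls (2.84% of all genes did), and the median was −0.30. In the 12-library fit 1 fell and the median was −0.45, with 37 of 40 negative. Kynu (ENSMUSG00000026866, chromosome 2, 43555329 to 43682715), kynureninase of tryptophan breakdown, read 292, 229.5, 237 and 188 CPM in WT DMSO 1 to 4 and 106, 111, 131 and 126 CPM in WT CDDO-Me 1 to 4 (−0.99 ± 0.16, edgeR adjusted p = 0.00578). Got1, cytosolic aspartate aminotransferase, read 460.3, 380.0, 290.1 and 239 CPM against 147, 108, 141 and 162 CPM (−1.30 ± 0.27, edgeR adjusted p = 0.041). Sds, serine dehydratase, read 714, 537, 366 and 331 CPM against 181, 168, 91.8 and 195 CPM (−1.61 ± 0.35, edgeR adjusted p = 0.0465). All 3 genes separated the groups, with WT DMSO 1 the highest control. Got1 and Sds both lost the call without WT DMSO 1 or 2 or any single WT CDDO-Me library (adjusted p up to 0.178 without WT CDDO-Me 2 and 0.145 without WT CDDO-Me 3). Outside the list, the cationic amino acid carrier Slc7a2 read 915, 1048, 1195 and 1235 CPM against 626, 609, 553 and 658 CPM (−0.84 ± 0.18, edgeR adjusted p = 0.0445), and Aass, of lysine breakdown, read 551, 371, 473 and 717 CPM against 263, 209.7, 321 and 301 CPM (−0.95 ± 0.21, edgeR adjusted p = 0.0493). Slc7a2 was not called without WT DMSO 2, 3 or 4 or any single WT CDDO-Me library (adjusted p up to 0.178 without WT CDDO-Me 2), nor Aass without WT DMSO 1, 3 or 4 or any single WT CDDO-Me library (up to 0.213 without WT CDDO-Me 2). Cps1, the entry enzyme of the urea cycle, read 5843 to 7324 CPM against 3089 to 5293 CPM without overlap and was not called (−0.68 ± 0.27, edgeR adjusted p = 0.262). Mat1a, which makes S-adenosylmethionine, was not called (−0.23 ± 0.27, edgeR adjusted p = 0.667). Sds is the only called gene among 20 periportal hepatocyte markers (median −0.31; 2 were called without WT DMSO 4 and 0 in the 12-library fit), and none of 20 pericentral markers was called (median 0.17, or −0.08 in the 12-library fit).

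Slc17a4, an anion carrier, had the smallest adjusted p of the falls, at 27.1, 52.9, 30.5 and 27.3 CPM in WT DMSO 1 to 4 and 13.2, 11.5, 9.41 and 9.45 CPM in WT CDDO-Me 1 to 4 (−1.65 ± 0.26, edgeR adjusted p = 0.00431). Chrna4, a nicotinic receptor subunit, read 37.2, 24.8, 2.74 and 4.91 CPM against 0.648, 0.447, 0.316 and 0.367 CPM (−5.09 ± 0.94, edgeR adjusted p = 0.0165). Phf11c, a PHD-finger gene, read 196, 31.5, 9.70 and 14.5 CPM against 5.86, 6.70, 5.93 and 5.42 CPM (−3.39 ± 0.73, edgeR adjusted p = 0.045). For Chrna4 and Phf11c WT DMSO 1 and 2 were the highest by far. Without WT DMSO 1 the Chrna4 value was −4.39 (adjusted p = 0.0462) and the Phf11c value −1.63 (adjusted p = 0.0853). Gm45301, a long intergenic RNA, read 6.41, 6.38, 2.01 and 1.52 CPM against 0.257, 0, 0.316 and 0.184 CPM (edgeR adjusted p = 0.0122), and Gm16301, a processed pseudogene inside Setdb2, read 10.8, 3.82, 0.468 and 0.918 CPM against 0.248, 0.372, 0.0790 and 0 CPM (−4.27 ± 0.88, edgeR adjusted p = 0.0326). Gm16301 lies beside Phf11c on chromosome 14, and its value without WT DMSO 1 was −3.08. Atg16l2, an autophagy gene that overlaps Fchsd2 on the other strand, went from 67.3 ± 34.4 to 15.8 ± 3.00 CPM (−2.09 ± 0.36, edgeR adjusted p = 0.00961). The treated libraries held next to no Gm45301 transcript. Calls were lost for Gm45301 without WT CDDO-Me 1 (adjusted p = 0.0554), Atg16l2 without WT CDDO-Me 2 (0.0525), Chrna4 without any single WT CDDO-Me library (up to 0.0727 without WT CDDO-Me 2), and for Gm16301 and Phf11c without WT DMSO 1 or 2 or any single WT CDDO-Me library (up to 0.116 without WT CDDO-Me 3 and 0.143 without WT CDDO-Me 2).

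Smaller falls by the naming rule were Zfand4 (−1.50 ± 0.32), Il4i1 (−1.79 ± 0.40), Lacc1 (−1.93 ± 0.37) and 9430037G07Rik (−1.55 ± 0.34), with edgeR adjusted p of 0.0436, 0.0493, 0.0226 and 0.0493. Lacc1, an immune regulator of macrophages, read 12.5, 11.6, 5.95 and 33.2 CPM in WT DMSO 1 to 4, the highest in WT DMSO 4, against 4.31, 4.61, 2.92 and 4.77 CPM in WT CDDO-Me 1 to 4. Il4i1, an amino acid oxidase, overlaps Nup62 on its own strand and Atf5 on the other, and reads from the overlap cannot be told apart. Of 25 genes of class I antigen presentation, 0 rose and 2 fell, both from the Q region: H2-Q7 read 63.9, 84.99, 45.9 and 121 CPM against 29.5, 31.03, 26.2 and 38.6 CPM (−1.33 ± 0.25, edgeR adjusted p = 0.0182), and H2-Q6 read 28.2, 40.03, 18.00 and 119 CPM against 14.1, 14.9, 10.7 and 16.2 CPM (−1.88 ± 0.41, edgeR adjusted p = 0.0492). Both were highest in WT DMSO 4, without which H2-Q6 was −1.04 and Lacc1 −1.26 (adjusted p = 0.0323 and 0.0158). H2-Q6 and H2-Q7 are close copies of each other. The median of that list was −0.06 and turned to 0.35 without WT DMSO 4, when 2 genes fell; 4 fell without WT DMSO 3, and the median in the 12-library fit was −0.38. H2-Q10, a soluble class I protein of liver, was not called (−0.32 ± 0.16, edgeR adjusted p = 0.345). Calls were lost for H2-Q7 without WT DMSO 2 or WT CDDO-Me 1, 2 or 3 (adjusted p up to 0.0863 without WT CDDO-Me 3), H2-Q6 without WT DMSO 2 or any single WT CDDO-Me library (up to 0.161 without WT CDDO-Me 3), Lacc1 without any single WT CDDO-Me library (up to 0.0973 without WT CDDO-Me 3), and for Zfand4, Il4i1 and 9430037G07Rik without WT DMSO 1 or 2 or any single WT CDDO-Me library (up to 0.143, 0.158 and 0.161 without WT CDDO-Me 3).

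Among steep rises that belong to no list, AC138292.1, a processed pseudogene on chromosome 10, read 0, 0, 0.803 and 0.367 CPM in WT DMSO 1 to 4 and 4.77, 6.40, 7.11 and 8.35 CPM in WT CDDO-Me 1 to 4 (4.45 ± 0.67, edgeR adjusted p = 0.00295). A530064D06Rik read 0.0682, 0, 0 and 0.459 CPM against 2.17, 2.23, 1.82 and 1.56 CPM (3.63 ± 0.80, edgeR adjusted p = 0.0493). Both were near or at 0 in most controls, which makes their fitted folds depend on the prior count. The first was 5.46 without WT DMSO 3 and the second 6.15 without WT DMSO 4 (adjusted p = 0.00104 and 0.00467). A530064D06Rik was not called without WT DMSO 1, 2 or 3 or any single WT CDDO-Me library (adjusted p up to 0.141 without WT CDDO-Me 2). Adora1, the adenosine A1 receptor, and Creg1, a secreted lysosomal glycoprotein, were named after their values were seen. They went from 16.01 ± 1.65 to 58.1 ± 10.8 CPM and from 197 ± 61.1 to 559 ± 50.6 CPM (edgeR adjusted p = 0.000113 and 0.00566). Tbcel and Pir, the tubulin-binding and iron-binding proteins whose promoter stretches are printed above, had log2 rises of 1.15 ± 0.17 and 1.33 ± 0.24 (edgeR adjusted p = 0.00192 and 0.0126).

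**Figure D3:**
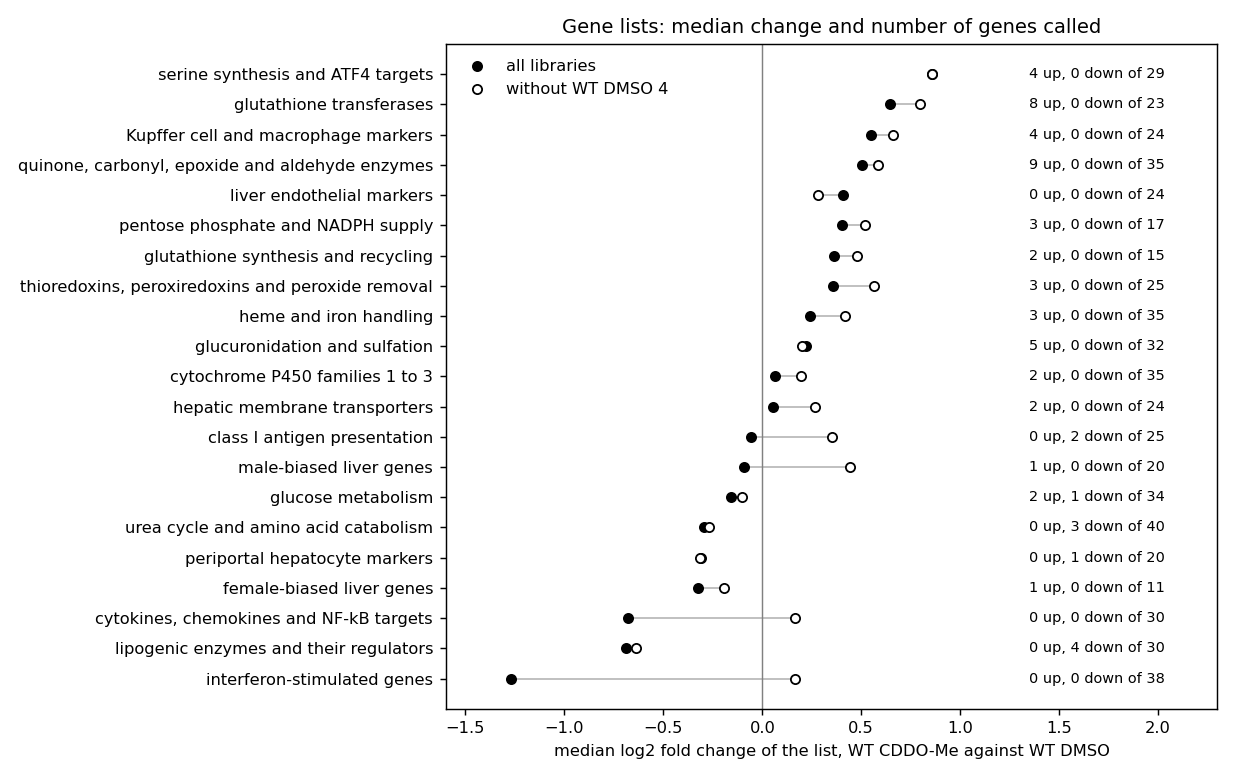
Median log2 fold change (x axis, WT CDDO-Me against WT DMSO) of the 18 gene lists with a called gene and of 3 lists named in the text, with all libraries (filled) and without WT DMSO 4 (open), and at the right the number of genes called up and down of those tested. The open and filled points lie close for the serine and lipogenic lists and more than 1 unit apart for the interferon list.

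Some macrophage transcripts rose in treated liver. Of 24 Kupffer cell and macrophage markers, 4 rose and 0 fell, 14 had all treated libraries above all controls (4.36% of all genes did), and the median was 0.55. Cd5l (ENSMUSG00000015854, chromosome 3, 87357881 to 87371073), a scavenger protein that macrophages secrete, read 55.5, 54.3, 60.9 and 46.7 CPM in WT DMSO 1 to 4 and 123, 197, 147 and 123 CPM in WT CDDO-Me 1 to 4 (1.44 ± 0.23, edgeR adjusted p = 0.00454). Marco, a scavenger receptor, read 10.8, 14.6, 6.16 and 16.2 CPM against 41.98, 66.6, 33.7 and 32.1 CPM (1.87 ± 0.33, edgeR adjusted p = 0.0124). Both were raised in every treated library. Clec4f, the Kupffer cell lectin, read 75.4, 78.3, 70.1 and 48.2 CPM against 109, 127, 126 and 117 CPM (0.82 ± 0.18, edgeR adjusted p = 0.0492), and Adgre1, the F4/80 antigen, went from 16.8 ± 2.93 to 30.6 ± 2.04 CPM (0.86 ± 0.19, edgeR adjusted p = 0.0493). Clec4f and Adgre1 were not called in any of the 8 fits without 1 library (adjusted p up to 0.147 and 0.147 without WT CDDO-Me 2), and Marco was not without WT CDDO-Me 2 (0.0556). With all markers summed, levels were 674, 701, 759.6 and 541 CPM in WT DMSO and 1027, 1281, 1163 and 1268 CPM in WT CDDO-Me. Mrc1 (0.44 ± 0.16) and the iron exporter Slc40a1 (1.17 ± 0.28) were not called (edgeR adjusted p = 0.232 and 0.0676), though neither overlapped between groups. The number of these markers called up was 2 without WT DMSO 4 and 5 without KO untreated 1 and 2 and WT DMSO 1 and 2. In bulk tissue, more cells of a type and more RNA per cell cannot be told apart.

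Outside the list, the macrophage regulator Lacc1 fell, as given above (−1.93 ± 0.37, edgeR adjusted p = 0.0226). Some genes known to be expressed in macrophages rose outside the list. They were named after their values were seen, and their cell of origin was not measured: the lectin Clec4n (1.95 ± 0.25), the lipoprotein-associated phospholipase Pla2g7 (2.13 ± 0.24), galectin 3 (Lgals3, 1.25 ± 0.26) and the sterol exporter Abcg1 (0.93 ± 0.21), with edgeR adjusted p of 0.000483, 0.000113, 0.0372 and 0.0493. Lgals3 was not called without WT DMSO 1 or 2 or WT CDDO-Me 2, 3 or 4 (adjusted p up to 0.147 without WT CDDO-Me 2), nor Abcg1 without WT DMSO 1, 2 or 4 or any single WT CDDO-Me library (0.178 without WT CDDO-Me 2). Endothelial and stellate markers leaned the same way without a call, except that 1 endothelial marker was called up without WT DMSO 3 and 1 without WT DMSO 4. Of 24 endothelial markers 23 had a positive fold change (median 0.41), and 9 had all treated libraries above all controls (4.36% of all genes did). Of 25 stellate cell and matrix markers 24 were positive (median 0.55) and 5 were above. Summed stellate markers were 509 to 1019 CPM in controls against 948 to 1154 CPM. Summed endothelial markers were 992, 1048, 1051 and 752 CPM against 1271, 1192, 1169 and 1152 CPM. Neutrophil and monocyte markers had 0 of 13 called (median 0.03) and summed to 190.1, 98.8, 41.4 and 1367 CPM in WT DMSO 1 to 4 and 148, 1135, 121 and 322 CPM in WT CDDO-Me 1 to 4. Without WT DMSO 4 their median was 1.21, with 11 of 12 positive and still 0 called. Lymphocyte and class II markers had 0 of 12 called (median −0.12). Cholangiocyte and progenitor markers had 0 of 18 called, with 10 positive and 8 negative (median 0.10, or −0.27 in the 12-library fit). Hepatocyte markers had 0 of 22 called, with 18 positive (median 0.21) and, in the 12-library fit, 4 positive (median −0.23). The part of such shifts in the other results was not tested.

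**Figure D4:**
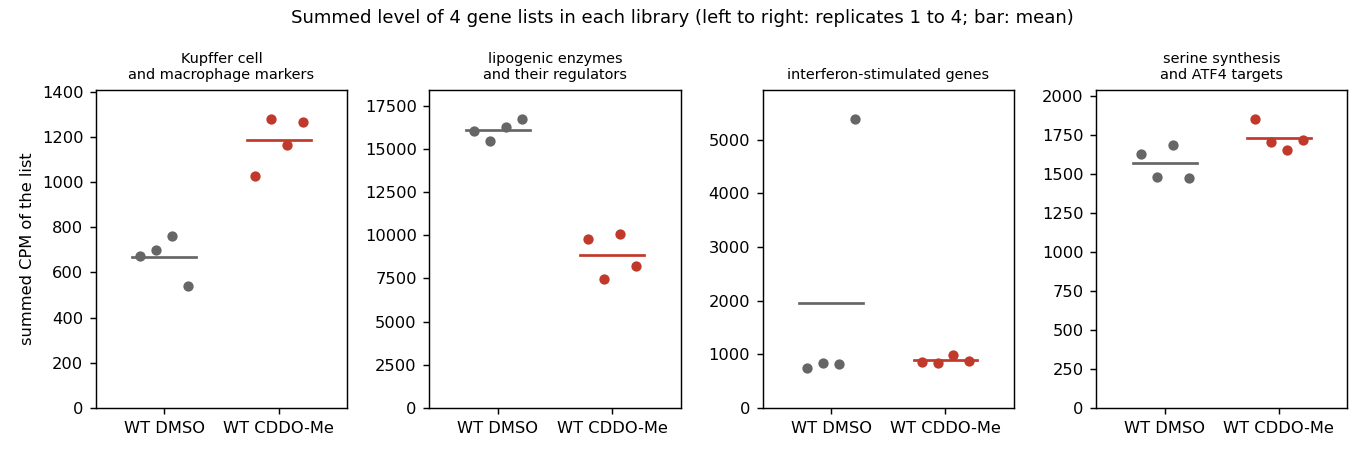
Summed CPM (y axis, from 0) of 4 gene lists in each WT library (grey, WT DMSO; red, WT CDDO-Me; replicates 1 to 4 from left to right; bars, means). Macrophage and lipogenic sums separate the groups, WT DMSO 4 alone is high for interferon genes at 5397 CPM, and the serine sums overlap between groups.

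Interferon and cytokine genes had no called member, and the sign of their medians turned on 1 library. Of 38 interferon-stimulated genes, 35 had a negative fold change, with a median of −1.27. They summed to 743, 841, 821 and 5397 CPM in WT DMSO 1 to 4 and 849, 838, 995 and 878 CPM in WT CDDO-Me 1 to 4. Without WT DMSO 4 the median was 0.16, and 25 of the 38 were positive. The 30 cytokine, chemokine and NF-kB target genes did the same, from −0.68 to 0.16. By edgeR 0 of the 38 and 0 of the 30 were called, with 24 and 16 at an unadjusted p under 0.05. Among all 16206 genes tested 2484 had such a p. Without WT DMSO 3, 3 interferon genes and 1 cytokine gene were called down. Without KO untreated 1 and 2 and WT DMSO 1 and 2, the counts were 6 and 2.

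In several further lists no gene was called. These were ER chaperones (26 tested, median 0.37), heat shock proteins (22, 0.40), proteasome subunits (37, 0.20), fatty acid oxidation (38, 0.36), cholesterol synthesis (32, 0.29), bile acid synthesis (18, 0.19), cell cycle (39, −0.04), immediate early and priming genes of regeneration (32, 0.00), acute phase proteins (30, 0.23), the circadian clock (21, −0.03) and carboxylesterases (16, 0.33). Unadjusted p under 0.05 was reached by 2, 3, 3, 8, 10, 3, 8, 2, 3, 1 and 3 of them in that order. Among all 16206 genes tested 2484 reached it. The medians moved with the libraries. Without WT DMSO 4 that of acute phase proteins was 0.89 (27 of 30 positive), of carboxylesterases 0.82, of ER chaperones 0.63 and of immediate early genes 0.33, with 1 immediate early gene called up. Without WT DMSO 3, 1 gene of fatty acid oxidation was called up. In the 12-library fit the medians were −0.21 for acute phase proteins, −0.15 for proteasome subunits, −0.01 for ER chaperones, 0.00 for heat shock proteins, 0.02 for fatty acid oxidation, 0.11 for cholesterol synthesis, 0.03 for bile acid synthesis and 0.10 for carboxylesterases, with 0 called. All treated libraries lay above all controls for 6 genes of cholesterol synthesis, 4 each of fatty acid oxidation and carboxylesterases, 2 of bile acid synthesis, 1 each of ER chaperones, heat shock proteins, proteasome subunits, cell cycle and clock genes, and 0 of acute phase and immediate early genes. Over all genes tested the share was 4.36%.

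The same genes were then read in KO liver, KO CDDO-Me against KO untreated. Of 16206 genes tested 21 were called there (0.130%). Of the 90 genes up in WT, 52 had a positive and 38 a negative KO fold change (45.5% of all genes were positive), with a median of 0.09, and 89 changed less in KO than in WT; they had been selected on the WT value. Only Pla2g7 (1.46 ± 0.24, edgeR adjusted p = 0.0163) and the co-chaperone gene Dnajc12 (2.68 ± 0.40, edgeR adjusted p = 0.0119), were called in KO as well; both are named after their values were seen, and their WT values were 2.13 ± 0.24 and 1.93 ± 0.38, that of Dnajc12 not called without WT DMSO 1 or 2 or WT CDDO-Me 3 or 4 (adjusted p up to 0.0971 without WT CDDO-Me 3). In a fit of the 8 KO libraries alone 1 of the 118 was called. Of the 28 genes down in WT, 23 were negative and 5 positive in KO with a median of −0.40, 9 had an unadjusted p under 0.05 and 0 were called. Among the 90 genes up, 19 had such a p in KO. The share of all genes with such a p in KO was not counted here.

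The difference between the WT and KO responses was called for 21 genes (0.130% of those tested), 19 of them among the 90 genes up and 0 among the 28 down. The 90 and the 28 had been selected on the WT response, which is part of this difference. Cbr3 read 0.375 ± 0.260 CPM in KO untreated and 0.316 ± 0.0579 CPM in KO CDDO-Me, a KO log2 fold change of −0.28 ± 0.47, and the difference was 6.999 ± 0.67 (edgeR adjusted p = 0.000198). Gstm1 read 123 ± 58.1 and 115 ± 4.62 CPM (−0.09 ± 0.27; difference 2.96 ± 0.39, edgeR adjusted p = 0.00241). Gclc read 193 ± 33.5 and 202 ± 43.8 CPM (0.07 ± 0.19; difference 2.07 ± 0.28, edgeR adjusted p = 0.00241). In these 3 genes the KO groups were close together. For Cyp2a4 the KO change was negative and not called (−2.57 ± 0.81, edgeR adjusted p = 0.221), and the difference was 6.91 ± 1.00 (edgeR adjusted p = 0.0051). The difference was also called for Marco (2.86 ± 0.47, edgeR adjusted p = 0.0155), the only macrophage marker among the 19. For genes such as Ugdh (1.08 ± 0.22, edgeR adjusted p = 0.0767), Slc48a1 (1.19 ± 0.26, 0.0842) and Fgf21 (5.13 ± 1.04, 0.0741) it was not called, which does not show that the responses were alike. Fasn and Acacb had KO changes of −0.77 ± 0.32 and −0.74 ± 0.27 (edgeR adjusted p = 0.281 and 0.249), and their differences from WT were −0.81 ± 0.46 and −0.80 ± 0.38 (adjusted p = 0.707 and 0.593).

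**Figure D5:**
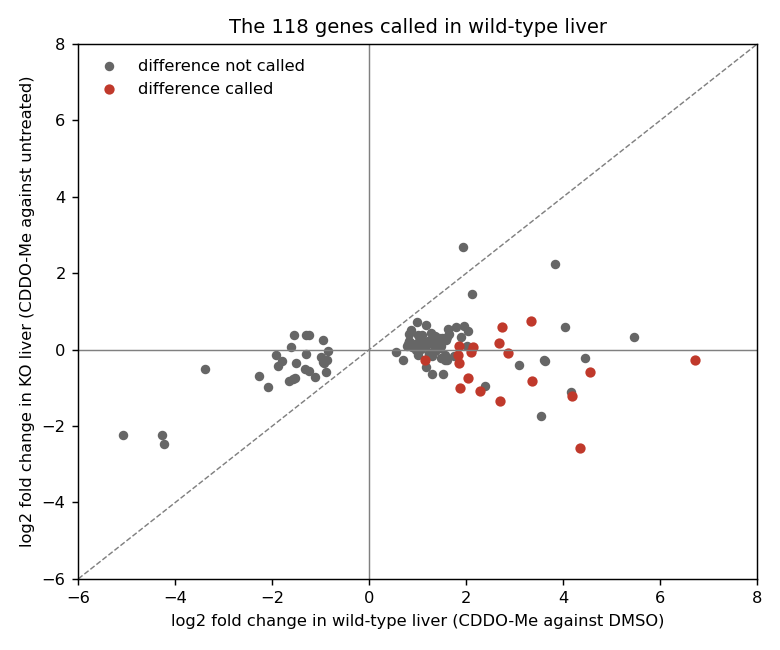
Log2 fold change in KO liver (y axis, CDDO-Me against untreated) against that in WT liver (x axis, CDDO-Me against DMSO) for the 118 genes called in WT, with genes whose difference was called in red and the line of equal change dashed. Points to the right of 0 gather around 0 on the y axis, and those to the left lie mostly below it.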

How the data were processed

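Total RNA from 16 mouse livers was sequenced; 8 WT libraries are compared. Per the labels' protocols, RNA was freed of ribosomal RNA, made into strand-marking libraries and read in pairs. The submitters' processing notes list build GRCm38.p5, TopHat2 2.1.0, HTSeq 0.6.1p1, DESeq2, cutadapt 1.2.1 and CASAVA 1.8.2. The sources used here do not say whether counting used strand. Raw counts were deposited by the authors for 33730 genes, of which 1080 had no read, together with FPKM values, which equal those counts divided by gene length and library total (largest relative deviation 8.7e-07). Gene positions, types and overlaps come from GENCODE M21 (GRCm38), which holds 33629 of the IDs.

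Counts were tested with edgeR 4.0.16 (R 4.3.3): TMM scaling, edgeR's default filter on low counts by group, 1 quasi-likelihood fit of all 16 libraries with a mean per group (12 residual degrees of freedom), 2-sided, with Benjamini-Hochberg adjustment over the 16206 genes tested. "Called" means an adjusted p under 0.05. CPM values use TMM-scaled totals, fold changes are edgeR's with its default prior count, and values are means ± SD or fold changes ± SE. The SE is not an edgeR output: it is the size of the fold change divided by the square root of the test's F. Intervals at 95% use this SE and a t distribution with 12 degrees of freedom. They are approximate and need not match the p-values. The edgeR test was also run on counts simulated with the spread and library totals of this fit, and the outcome is not reported here. Alternatives used DESeq2 1.42.0, limma 3.58.1 (voom, and log2(FPKM + pseudocount) with 1 or 0.1), other filters and left-out libraries. WT totals of 12002317 to 99284626 counts set the precision: low genes rest on few reads. No 2 libraries of a WT group agreed within counting noise (lowest chi-square per degree of freedom 22.9), so none were merged.

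The experiment, the 44 gene lists and the tests were chosen with earlier results of these data known. Genes were named by rule: 8 NRF2 markers; the 15 largest rises and 15 largest falls among called genes with a mean of at least 1 CPM in the higher group; per list up to 4 called genes a direction by adjusted p and the 2 most abundant uncalled ones; and the 8 called genes with the largest gain and the 8 with the largest loss in CPM. The 21 other genes were named after their values were seen. Some genes the rule picks are not reported here.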

Additional observations from a re-analysis of the deposited data

Results flagged for a closer look

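In 121 genes and both WT groups (242 sets of 4 libraries), 14 sets had 1 library farther from the rest than Dixon's 95% limit for 4 values, of which chance alone marks about 1 in 20 sets. WT DMSO 4 was the distant library in 4 of them: Hmox1 at 294.4 CPM, high against 20.5 to 47.2 CPM; A530064D06Rik at 0.459 CPM, high against 0 to 0.0682 CPM; Fgf21 at 0.0918 CPM, low against 1.00 to 1.11 CPM; and Abcg1 at 4.64 CPM, low against 8.12 to 8.23 CPM. WT CDDO-Me 1 was distant in 3: Fgf21 was high at 90.3 CPM against 7.89 to 21.8 CPM, and Pla2g7 and Akr1c19 were low at 11.2 CPM and 121.1 CPM. In WT CDDO-Me 4, Hmox1 was high at 266.0 CPM, and Slc35d1 and Clec4n were low at 310.2 CPM and 4.41 CPM. In WT DMSO 3, Gsta2 was high at 16.3 CPM and Clec4n low at 1.07 CPM. Slc17a4 was high in WT DMSO 2 at 52.9 CPM and Phf11c in WT DMSO 1 at 196.1 CPM.

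The WT and KO responses differed by edgeR's test of the difference for 18 named genes, WT being the larger each time. All 18 had been called up in WT, and the WT response is part of this difference, so their selection favours that direction. The differences, WT minus KO on the log2 scale, were 6.999 for Cbr3, 6.91 for Cyp2a4, 5.40 for Gsta1, 5.14 for Gm3776, 4.16 for Gstm3, 4.06 for Gm10639, 3.37 for Gsta2, 2.96 for Gstm1 and 2.86 for Marco. They were 2.78 for Akr1b8, 2.58 for Nqo1, 2.48 for Cbr1, 2.20 for Adora1, 2.15 for Srxn1, 2.14 for Abcc4, 2.07 for Gclc, 1.76 for Blvrb and 1.41 for Tbcel. The vehicle, given to WT controls only by the labels, cannot be told apart from the genotype in them.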

How the results depend on the processing

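All 118 called genes kept their direction under every alternative in which they were tested. Against 118 calls, 90 up and 28 down, DESeq2 made 466 (257 up, 209 down), and limma on log2(FPKM + 1) and log2(FPKM + 0.1) called 14 and 18 down, the second with the median of all genes at −0.13. The 8 WT libraries alone gave 72 calls, 10 down, and 74, 6 down, with a term for WT DMSO 4 and WT CDDO-Me 1. Leaving out 1 library gave 54 to 219 calls, 51 to 124 up and 3 to 111 down. Without WT DMSO 3 and WT CDDO-Me 4, chosen after seeing the data, 17 were down. A replicate block gave 226 calls (163 up, 63 down, 113 shared). Same-numbered libraries correlated at 0.305, −0.030, 0.319 and −0.028. For WT DMSO 1 and 3, but not 2 and 4, that was the highest correlation with any WT CDDO-Me library. Whether the numbers pair the animals cannot be told from these values. The causes of these shifts were not tested. The KO libraries alone called 1 of the 118 against 2, and deposited FPKM put 448 genes wholly above against 706. Among genes called up, TGACTCAGC was in 6.1% of promoters against 27.3% for the less specific TGACNNNGC. Among the 90 called genes named, 1499 of 1974 alternative values kept the call, 475 lost it and 0 reversed, and 39 genes kept it throughout. Uncalled genes changed sign in 9 of 681 values: without KO untreated 1 and 2 and WT DMSO 1 and 2, Hmox1 −0.30, Bach1 −0.31, Glo1 −0.27, Selenop −0.12, Adh1 −0.11, Cyp2e1 −0.13, Slco1b2 −0.10 and Hpx −0.11; and Hmox1 −0.21 with WT DMSO 3 and WT CDDO-Me 4 left out. Depth limits genes near 1 CPM, which rest on few reads in the smallest library.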
